A study of Macaca mulatta with 56 samples.

Results

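Mitochondrial ribosomal proteins were taken as every identifier whose Ensembl macaque symbol begins with MRPL or MRPS followed by a number. The rule found 69 of the 17807 identifiers in the table. They carry 68 symbols, since MRPS33 stands on 2 identifiers. By symbol alone, 44 identifiers were counted with the large subunit (MRPL) and 25 with the small subunit (MRPS). MRPS18A and MRPS30 were thus counted with the small subunit, although in the human ribosome they sit in the large one. Messenger RNA was sequenced from 4 brain regions (amygdala, hippocampus, prefrontal and occipital cortex) of the same 14 old female rhesus macaques (Macaca mulatta), which gave 56 libraries.

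The treated group (HT) was 7 animals whose implanted capsules held estradiol and kept mean serum estradiol at 82.1 pg/mL. The other group (OvH) was 7 animals with empty capsules and a mean of 6.6 pg/mL. Both groups had lost ovaries and uterus, lived in social pens, were between 19.4 and 23.2 years old, and ate a Western-style diet in which fat supplied 36% and sugars 18.5% of calories. Surgery came about 6 weeks into the diet, and HT began at once. The study is described as lasting 30 months, while serum estradiol is averaged over 32 months. Neither intact animals nor animals on chow were analysed here, so HT is set against surgical loss of the ovaries on the same diet. Each region was pulverized whole, and in such bulk samples fewer cells of a type and less RNA per cell cannot be told apart.

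Mitochondria carry their own ribosomes, which translate the few messages of the mitochondrial genome, nearly all of them for core subunits of the respiratory chain and of ATP synthase. Every protein of these ribosomes is encoded in the nucleus, made in the cytosol and imported. Some descend from bacterial ribosomal proteins and others are found only in mitochondria. Low numbers in the symbols mostly follow the bacterial proteins, and numbers above 36 (large subunit) or 21 (small subunit) were mostly given to proteins without such a counterpart. There are exceptions, among them MRPL47, the counterpart of bacterial L29. By number, 25 of the large subunit members and 14 of the small subunit members belong to the bacterial series, against 19 and 11 with higher numbers. Neurons depend on oxidative phosphorylation for most of their ATP.

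The amygdala columns of the table and the columns of the other 3 regions do not always hold the same transcript under an identifier. A member was therefore used outside the amygdala only where its mean log2(value + 1) over the other 3 regions lay within 2 of that in the amygdala. This kept 62 of 69 members (89.9%), 38 large and 24 small, and 75.9% of all identifiers. A level within that limit does not show that the same transcript was measured. The members furthest from the amygdala level among those kept were MRPS18C (lower by a log2 difference of -1.39), MRPL13 (-1.12) and MRPL42 (-1.11). The nearest of those left out was MRPL45 (-2.71), followed by MRPL1, MRPL35, MRPL21, MRPL23, MRPS31 and MRPL48, the last with a difference of -13.11. All 69 members were measured and tested in amygdala.

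Values are reads normalized by the authors to a common upper quartile, and differences are on the log2(value + 1) scale, which understates the change of low members. A member is called higher or lower where limma's test gave a Benjamini-Hochberg adjusted p under 0.05 over all identifiers tested. In amygdala the read number per library was 53.1 ± 9.29 mega-reads in HT and 65.2 ± 14.9 mega-reads in OvH (SD, n = 7 each, two-sided exact permutation p = 0.0921). Totals after normalization, in the same unit, were 71.1 ± 4.46 in HT and 61.4 ± 4.08 in OvH (exact permutation p = 0.00291). In the other regions the group means of read number lay between 59.3 and 65.1 mega-reads and those of the normalized total between 58.5 and 62.03. Neuronal markers were present in each region, with all 11 tested and the lowest of them, ELAVL4, at means of 3236 to 6362. Being present in every region, they do not check the region labels. The hippocampus libraries of animals 30 and 43, both OvH, correlated better with each other's animal than with their own over the 500 identifiers used. The library of animal 30 stood at 0.137 with its own animal and 0.347 with animal 43. That of animal 43 stood at 0.186 with its own animal and 0.196 with animal 30, nearly the same. The remaining 54 libraries went best with the animal on their label. The hippocampus libraries of animals 40 (HT) and 33 (OvH) had TTR, a choroid plexus gene, at 1462330 and 1325280, against 26.98 to 49610 in the other 12.

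In HT amygdala 22 of the 69 members were higher than in OvH and 0 were lower. Over all 16129 identifiers tested there, 6.16% were called higher and 0.732% lower. The members' differences were positive for 57 and negative for 12, with a median of 0.36 against 0.01 over all identifiers tested. The called members had log2 differences of 0.47 to 1.203, HT means 1.39 to 2.37 times the OvH means, and adjusted p of 0.00783 to 0.0491. At an unadjusted p under 0.05 there were 37 members, 2 of them lower in HT, and 3474 of all identifiers, 53.6% of the members and 21.5% of all.

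**Figure D1:**
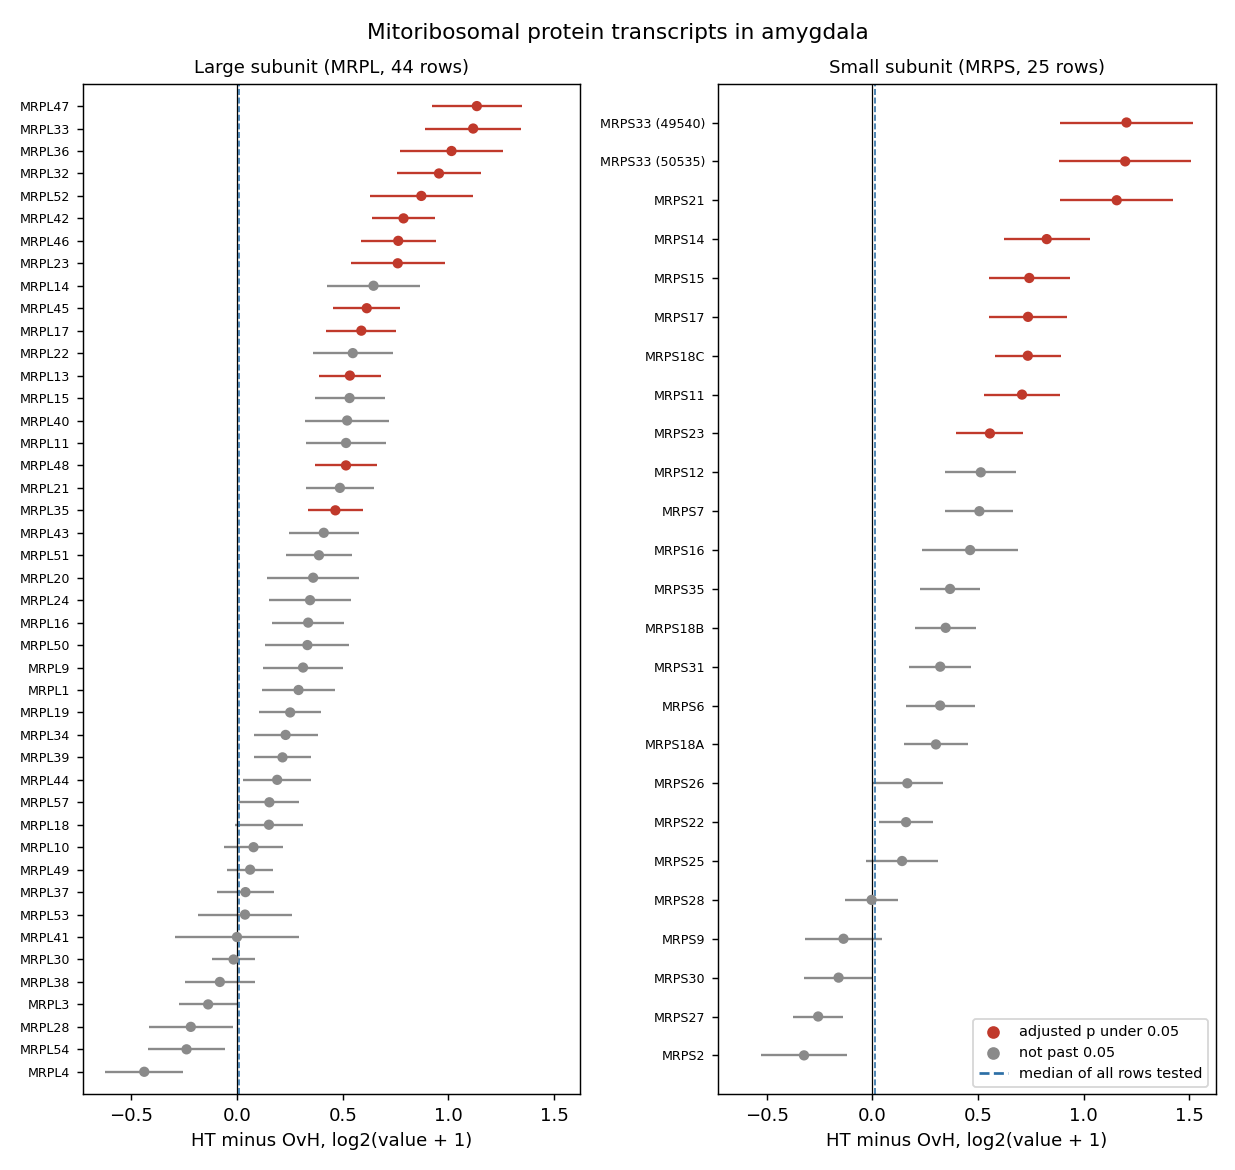
HT minus OvH difference in log2(value + 1) ± SE for each of the 69 members in amygdala, large subunit on the left and small subunit on the right, 7 animals per group. Red marks the 22 members with an adjusted p under 0.05, which all lie at or above 0.47, and the dashed line marks the median of all identifiers tested, 0.01. The 2 identifiers of MRPS33 are told apart by their last digits.

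MRPL47 (ENSMMUG00000009744), a large subunit protein near the exit of the tunnel through which new chains leave the ribosome, had the smallest p. Its lowest, median and highest values were 6113, 13542 and 17243 in HT amygdala, against 3625, 5673 and 8200 in OvH amygdala. Of the 7 HT animals 6 lay above every OvH animal, and animal 39 alone fell within the OvH range. The means were 13048 ± 3508 in HT and 5875 ± 1515 in OvH, a log2 difference of 1.13 ± 0.21 (SE, limma adjusted p = 0.00783).

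MRPL33 (ENSMMUG00000054578), MRPL32 (ENSMMUG00000060273) and MRPL36 (ENSMMUG00000004451) are small proteins of the bacterial series. MRPL33 ranged over 2164, 5533 and 6675 (lowest, median, highest) in HT, against 1802, 2112 and 3001 in OvH, a log2 difference of 1.12 ± 0.23 (limma adjusted p = 0.00875). MRPL32, which in yeast and mice is cut by the m-AAA protease on import, ranged over 4660, 8394 and 11401 in HT, against 2951, 4660 and 5994 in OvH. Its log2 difference was 0.96 ± 0.20 (limma adjusted p = 0.00899). For each of the 3 the HT library of animal 39 lay inside the OvH range and the other 6 HT libraries above it. MRPL36 averaged 5402 ± 1691 in HT and 2661 ± 844 in OvH, with a log2 difference of 1.01 ± 0.25 (limma adjusted p = 0.0201). This call rested on 2 animals in turn, since the adjusted p was 0.0541 without OvH animal 33 and 0.0524 without HT animal 36.

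MRPL42 (ENSMMUG00000016805) and MRPL46 (ENSMMUG00000013658) have no bacterial counterpart. MRPL42 ranged over 2795, 4002 and 5053 in HT, against 1744, 2004 and 2874 in OvH, and MRPL46 over 2877, 4725 and 6552 in HT, against 2013, 2519 and 3721 in OvH. The overlap came again from animal 39, whose values of both lay under the highest OvH animal. The log2 differences were 0.79 ± 0.15 for MRPL42 and 0.76 ± 0.18 for MRPL46 (limma adjusted p = 0.00783 and 0.0167).

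In the small subunit MRPS21 (ENSMMUG00000021391), the counterpart of bacterial S21, ranged over 11357, 22002 and 33940 in HT, against 5576, 11066 and 17640 in OvH. Its log2 difference was 1.16 ± 0.27 (limma adjusted p = 0.0166). MRPS18C (ENSMMUG00000015353), the counterpart of bacterial S18 that sits in the small subunit, ranged over 3336, 6040 and 6462 in HT, against 2433, 3647 and 4078 in OvH. Its log2 difference was 0.74 ± 0.16 (limma adjusted p = 0.0107). Both were above every OvH animal in 6 of 7 HT animals. MRPS33 was called on both its identifiers, which could share reads and were not counted as independent. The more abundant one (ENSMMUG00000050535) averaged 5645 ± 2351 in HT and 2379 ± 885 in OvH, a log2 difference of 1.197 ± 0.31 (limma adjusted p = 0.0291), and 5 of 7 HT animals lay above every OvH animal.

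**Figure D2:**
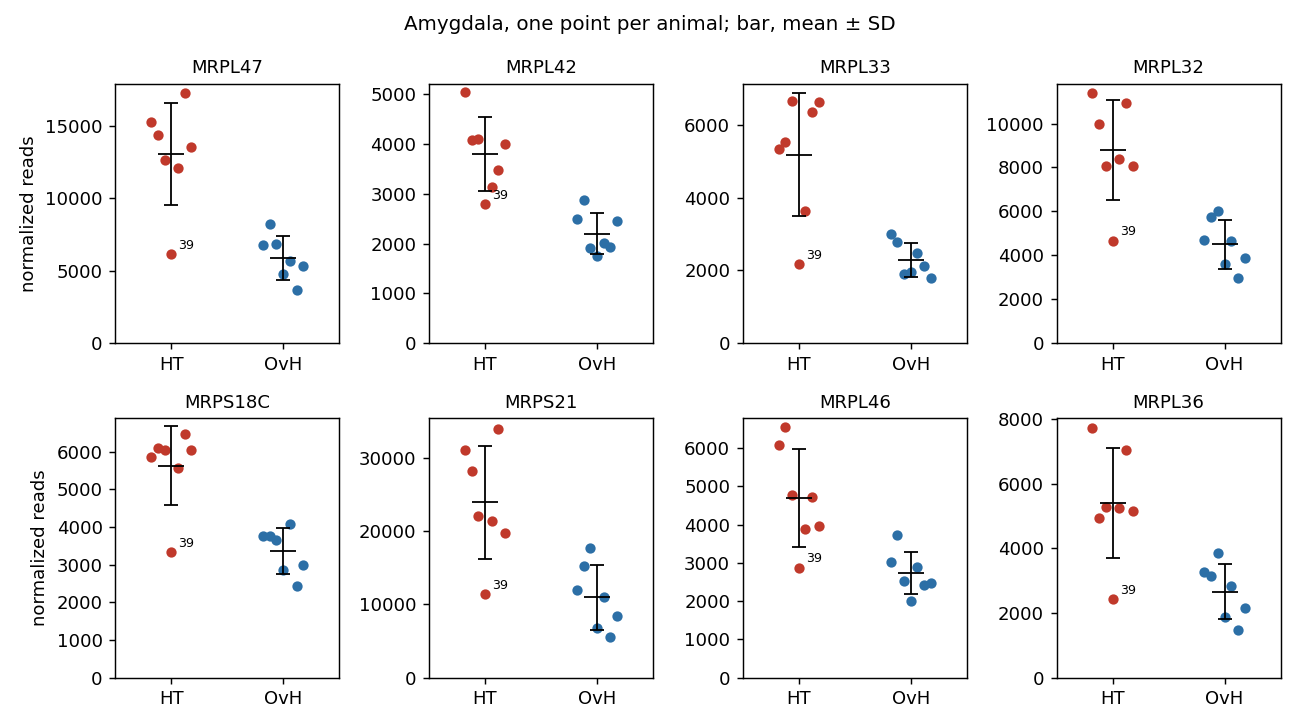
Normalized reads in amygdala for the 8 members with the smallest p among those higher in HT, one point per animal, HT left of OvH, with mean ± SD. In each panel 6 HT animals lie above all 7 OvH animals and HT animal 39 (numbered) lies among them, for MRPL47 at 6113 against a highest OvH value of 8200.

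The remaining called members were MRPL13, MRPL17, MRPL23, MRPL35, MRPL45, MRPL48 and MRPL52 in the large subunit and MRPS11, MRPS14, MRPS15, MRPS17 and MRPS23 in the small subunit. By number class 7 of 25 members of the large bacterial series and 6 of 19 with higher numbers were called, with medians of 0.36 and 0.33. In the small subunit 6 of 14 of the bacterial series and 3 of 11 with higher numbers were called, with medians of 0.51 and 0.17. Differences between these classes were not tested. Called members were thus found in both subunits and both number classes.

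Members with a described part in translation or in human disease were looked at by name. MRPL45, which lies at the tunnel exit and ties the ribosome to the inner membrane, averaged 7401 ± 1331 in HT amygdala and 4844 ± 972 in OvH amygdala. Its log2 difference was 0.61 ± 0.16 (limma adjusted p = 0.0272), and again animal 39 was the 1 HT animal inside the OvH range. That call was lost with equal totals (adjusted p = 0.0629), by edgeR (0.0546), with myelin markers as a covariate (0.126), and without any one of animals 33, 35, 36, 37, 38, 40, 42 and 43 (up to 0.0701).

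Proteins of the decoding side came next but did not pass. MRPS12, part of the decoding centre, averaged 4977 ± 1230 in HT and 3427 ± 583 in OvH (log2 0.51 ± 0.17, limma adjusted p = 0.0778). MRPS7, which contacts transfer RNA in the small subunit head, averaged 7515 ± 1840 in HT and 5226 ± 903 in OvH (log2 0.51 ± 0.16, limma adjusted p = 0.0698). For each of them 5 of 7 HT animals lay above every OvH animal. DESeq2 put both past the threshold (adjusted p = 0.0429 for MRPS12 and 0.04996 for MRPS7), and the replicate block over all 56 libraries did so for MRPS7 (0.0483). By limma both also passed without OvH animal 32 (adjusted p = 0.0481 for MRPS12 and 0.0443 for MRPS7) and without HT animal 39 (0.00894 for MRPS12 and 0.0210 for MRPS7).

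MRPL11, at the base of the stalk that recruits translation factors, averaged 6702 ± 1549 in HT and 4738 ± 1448 in OvH (log2 0.52 ± 0.19, limma adjusted p = 0.117). OvH animal 32, at 7598, overlapped all but 1 of the HT animals. The difference passed without that animal (0.64, limma adjusted p = 0.0170) and without HT animal 39 (0.63, 0.0313). MRPS16, whose loss in people causes a respiratory chain deficiency, ranged over 2486, 2999 and 4221 in HT, against 1666, 2051 and 5730 in OvH (log2 0.46 ± 0.23, limma adjusted p = 0.249). The OvH value of 5730 was again animal 32, and the other 6 OvH animals lay at or under 2102, below every HT animal. Without animal 32 MRPS16 was called higher (0.69, limma adjusted p = 0.00349). Of the paralogs of bacterial S18, MRPS18B stood at 0.35 ± 0.14 (limma adjusted p = 0.170) and MRPS18A, which in the human ribosome sits in the large subunit, at 0.30 ± 0.15 (0.264).

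Other members with a described part were near the middle of all identifiers. MRPS22 and MRPL44, both with disease variants in people, stood at 0.16 ± 0.13 and 0.19 ± 0.16, but at -0.05 and -0.02 with equal totals. MRPL10, the anchor of the stalk, stood at 0.08 ± 0.14, but at -0.13 with equal totals and -0.05 by edgeR. MRPL3, a protein near the peptidyl transferase centre, stood at -0.14 ± 0.14 and MRPS30, which sits in the large subunit of the human ribosome, at -0.16 ± 0.16. The limma adjusted p of these 5 lay between 0.510 and 0.806. MRPL12, MRPL58, MRPS5, MRPS34 and MRPS36 were looked for too, but no identifier in the table was paired with these symbols.

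The members on the negative side did not pass as deposited. MRPL4, a core large subunit protein, ranged over 880, 1559 and 2011 in HT amygdala, against 1404, 1995 and 2857 in OvH amygdala, a log2 difference of -0.44 ± 0.18 (limma adjusted p = 0.173). MRPS27, an RNA-binding protein of the small subunit, ranged over 3220, 4315 and 5374 in HT, against 4151, 5283 and 5700 in OvH, a difference of -0.26 ± 0.12 (0.219). In both, 6 of 7 HT animals lay below the OvH median, and the groups overlapped. With libraries scaled to equal totals MRPL4 (-0.65, limma adjusted p = 0.0343) and MRPS27 (-0.47, 0.0327) were called lower. MRPS2 stood at -0.32 ± 0.21 and MRPL54 at -0.24 ± 0.18 (limma adjusted p = 0.396 and 0.496).

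No member separated the groups completely, while 0.744% of all identifiers tested had every HT animal above every OvH animal and 0.062% had every one below. In 15 members 6 of 7 HT animals lay above every OvH animal, as in 4.41% of all identifiers tested, and in all 15 the remaining HT library was animal 39. In 28 members the HT median lay above the highest OvH animal (13.4% of all identifiers), and in 48 at least 6 HT animals lay above the OvH median (25.8%). Animal 39 was the lowest HT library for 36 of 69 members and animal 36 the highest for 36. Among OvH libraries animal 32 was highest for 42 members and animal 35 lowest for 39.

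The mean over all 69 members was 12.12 ± 0.22 log2 in HT amygdala (11.74 to 12.43) and 11.73 ± 0.23 log2 in OvH amygdala (11.40 to 12.09). In 5 of 7 HT animals it lay above every OvH animal. As a share of the normalized total the members' sum was 5845 ± 701 ppm in HT and 4920 ± 599 ppm in OvH, and 4 of 7 HT animals exceeded the highest OvH animal.

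Several other measures moved with the members in amygdala. The mean of cytosolic ribosomal proteins was 15.35 ± 0.51 log2 in HT and 14.22 ± 0.41 log2 in OvH. Animal 39 was the lowest HT library there too, at 14.29, and animal 32 the highest OvH library, at 14.78. Their part in the members' difference was not tested, and neither was that of the larger normalized totals in HT beyond the equal-totals values given here. The summed level of 14 identifiers of myelin markers lay between 798505 and 1627970 in HT and between 357328 and 1263700 in OvH. Of these 14 identifiers, MAG not among them, 3 were called higher and 0 lower, with a median of 0.48. Meningeal fibroblast markers had a median of 0.51, with 0 of 6 called and a summed level of 3641 to 23957 in HT and 3012 to 10026 in OvH. Neuronal markers had a median of -0.26, with 0 of 11 called and sums of 360662 to 518005 in HT and 362756 to 574827 in OvH. Endothelial markers had a median of -0.35, with 0 of 8 called and sums of 4373 to 6889 in HT and 4942 to 8797 in OvH. Of the other lists, 1 of 8 astrocyte markers and 1 of 7 microglia markers were called higher (medians -0.08 and 0.08), and none of 6 oligodendrocyte precursor or 6 choroid plexus markers was called by limma (medians -0.23 and -0.24). Over all identifiers tested in amygdala 6.16% were called higher and 0.732% lower. The part of the marker lists in the members' difference was not tested. A fit with myelin as a covariate was made, but myelin markers themselves leaned higher in HT. That fit therefore cannot separate myelin from treatment. With the myelin markers as a covariate 2 members, MRPL42 and MRPL33, stayed past the threshold, and the members' median was 0.28 against 0.05 over all identifiers. MRPL47 then stood at 1.11 (adjusted p = 0.0503), MRPS18C at 0.73 (0.0680) and MRPL32 at 0.85 (0.0806).

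The number of called members differed between scalings and tools. With libraries scaled to equal totals 13 were higher and 2 lower, and the median of all identifiers was -0.20, against 0.01 as deposited. On the recovered reads, where the test differs as well as the scaling, edgeR called 13 higher and 0 lower, with a median of all identifiers of -0.10, and DESeq2 called 25 higher and 0 lower, with a median of -0.03. The members' median less that of all identifiers was 0.34 by DESeq2 and 0.35 in the other 3. Leaving out 1 animal gave between 7 called members (without OvH animal 33, and also without HT animal 36) and 33 (without OvH animal 32). The count was 32 without HT animal 39, 10 without animal 35, 37 or 38, 11 without animal 43, 13 without animal 42 and 14 without animal 40. Shares of all identifiers called in these alternative fits are not given, so a changed count need not be particular to the members.

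Other genes of mitochondrial translation in amygdala were counted by list, and differences between lists were not tested. Over all identifiers tested there, 6.16% were called higher and 0.732% lower. Of 5 mitoribosomal proteins with other symbols 1 was higher, CHCHD1, a small subunit protein, at 8370 in HT and 4008 in OvH (log2 1.04 ± 0.20, limma adjusted p = 0.00786). DAP3, another small subunit protein, stood at -0.06 and AURKAIP1 at -0.41. Of 16 translation factors 1 was higher, about the share of all identifiers. It was SLIRP, which stabilizes mitochondrial messages, at 28568 in HT and 12072 in OvH (log2 1.28 ± 0.27, limma adjusted p = 0.00998). Its binding partner LRPPRC stood at -0.38 (0.196), the elongation factors TUFM and GFM1 at -0.20 and 0.01, and the median of the list was -0.07.

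None of 17 mitochondrial aminoacyl-tRNA synthetases passed by limma, with 1 at an unadjusted p under 0.05 and a median of -0.04. Of 22 assembly factors tested 1 was higher, a share under that of all identifiers. It was the ribosomal RNA methyltransferase TFB1M (0.68 ± 0.18, limma adjusted p = 0.0287), and the median of the list was -0.04. Of 15 genes for mitochondrial DNA and RNA upkeep 2 were higher, the transcription elongation factor TEFM (0.67 ± 0.15, 0.0123) and TRMT10C, a subunit of mitochondrial RNase P (0.65 ± 0.16, 0.0236), with a median of 0.06. The RNA polymerase POLRMT stood at -0.13 and the transcription factor TFAM at 0.03. Of 10 nuclear regulators of respiratory genes none passed by limma, with 0 at an unadjusted p under 0.05, PPARGC1A at -0.09 and NRF1 at 0.06. By contrast 31 of 66 nuclear respiratory chain subunits (median 0.60) and 64 of 76 cytosolic ribosomal protein identifiers (median 1.24) were called higher, and none of either list lower.

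In hippocampus HT minus OvH was negative for 54 of the 62 level-matched members and positive for 8, with a median of -0.13 against 0.02 over all identifiers. None passed the threshold by limma, edgeR or DESeq2, where limma called 0% of the 16317 identifiers tested in either direction. At an unadjusted p under 0.05 limma had 0 members and 335 of all identifiers, and every member's adjusted p was 0.9999 after rounding. MRPS22 ranged over 2368, 2531 and 3206 in HT, against 2650, 2840 and 3762 in OvH, with a log2 difference of -0.18 ± 0.12. MRPL54 (-0.27 ± 0.17) and MRPS30 (-0.26 ± 0.17, but -0.12 without animal 30) followed, and on the positive side MRPL53 (0.24 ± 0.38), whose means were 43.8 in HT and 34.5 in OvH, MRPL9 (0.04 ± 0.16) and MRPL44 (0.03 ± 0.14). MRPL9 and MRPL44 changed sign when single animals were left out. The groups overlapped for all 62 members, while 0.0123% of all identifiers had every HT animal above every OvH animal and 0.0184% every one below.

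The spread in hippocampus differed by group. The median SD over members was 0.45 log2 in OvH and 0.31 log2 in HT. Animal 30 was the lowest OvH library for 39 of 62 members and animal 43 the highest for 31, and these are the libraries whose animal was in doubt. Without both the median difference was -0.16, without the libraries of animals 33 and 40 it was also -0.16, without animal 30 it was -0.22 and without animal 43 it was -0.06. Other lists lay on the same side in hippocampus, with 58 of 62 cytosolic ribosomal protein identifiers negative (median -0.17) and 53 of 55 respiratory chain subunits negative (median -0.17). Their part in the members' values was not tested.

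In occipital cortex the members split into 31 positive and 31 negative with a median of 0.00, and in prefrontal cortex into 36 and 26 with a median of 0.03. No member passed by limma, edgeR or DESeq2 in either region, and limma called 0% of the 16138 and 16286 identifiers tested. At an unadjusted p under 0.05 occipital cortex had 303 of all identifiers and 1 member, MRPL54 (1948 ± 277 in HT and 2329 ± 292 in OvH, log2 -0.26 ± 0.12). MRPL51 (-0.25 ± 0.14) and MRPS2 (-0.20 ± 0.15) came next on that side, and MRPL50 (0.27 ± 0.21), MRPL53 (0.38 ± 0.33) and MRPL44 (0.13 ± 0.14) on the other. Every adjusted p was 0.999. All members overlapped between groups, against 0% of identifiers fully higher in HT and 0.0372% fully lower.

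Prefrontal cortex had 2 members (3.23%) at an unadjusted p under 0.05, a share near the 3.7% of all identifiers tested there. MRPS26, a mitochondria-specific small subunit protein, ranged over 2199, 2326 and 3346 in HT, against 2508, 3067 and 3716 in OvH (log2 -0.31 ± 0.11). MRPL19, a large subunit protein of the bacterial series, ranged over 1138, 1261 and 1405 in HT, against 980, 1110 and 1204 in OvH (log2 0.20 ± 0.09). In each, 5 of 7 HT animals lay beyond every OvH animal, and limma's adjusted p was 0.9999 after rounding. MRPL13 (0.22 ± 0.11), MRPL9 (0.28 ± 0.15), the MRPS33 identifier ENSMMUG00000049540 (-0.33 ± 0.20) and MRPL51 (-0.10 ± 0.09) completed the 3 smallest p in each direction. All members overlapped between groups, against 0.0246% of identifiers fully higher in HT and 0.0184% fully lower. Averaged per animal over the 3 regions, 0 members passed by limma (0% of 16354 identifiers), 0 were at an unadjusted p under 0.05, and the median was -0.03. The first by p there were MRPL54 (-0.18), MRPS26 (-0.29) and MRPL51 (-0.17) on the negative side and MRPL3 (0.11), MRPL44 (0.12) and MRPL19 (0.10) on the positive side.

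**Figure D3:**
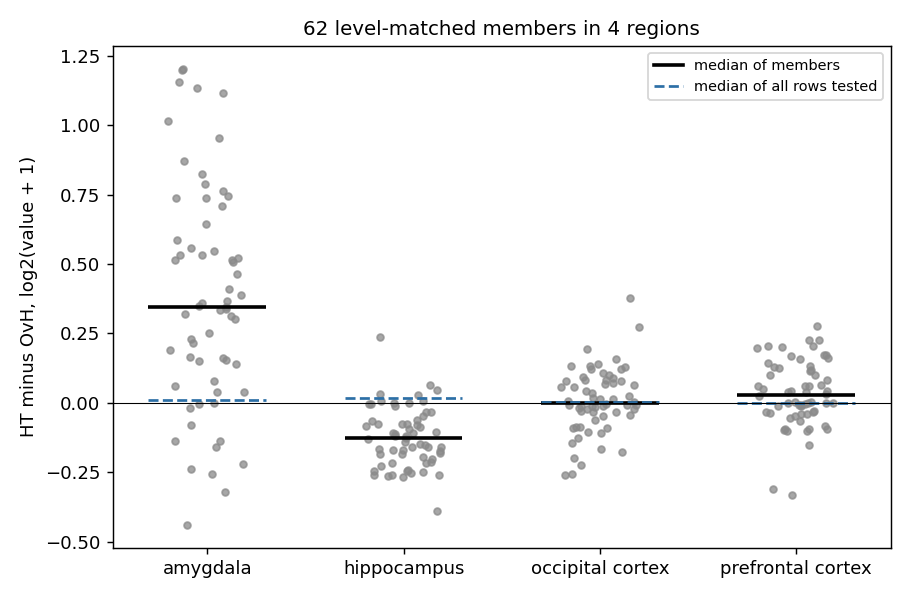
HT minus OvH difference in log2(value + 1) for the 62 level-matched members in each region, 1 point per member, with the members' median (solid) and the median of all identifiers tested (dashed). The amygdala points reach 1.203, while the members' median is -0.13 in hippocampus, 0.00 in occipital and 0.03 in prefrontal cortex.

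Whether HT acted differently in amygdala was tested within animals, as amygdala minus the mean of the other 3 regions. The difference of the HT effect was positive for 52 of 62 members and negative for 10, with a median of 0.39 against 0.00 over all identifiers. By limma 0 members passed, and 0% of the 13468 identifiers tested did. At an unadjusted p under 0.05 there were 31 members and 3081 of all identifiers. The smallest adjusted p, 0.0588, was shared by MRPL47 (1.18 ± 0.28), MRPL42 (0.72 ± 0.18), MRPL33 (1.08 ± 0.27) and the more abundant MRPS33 identifier (1.204 ± 0.31).

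For MRPL47 the HT minus OvH difference was 1.13 in amygdala, -0.25 in hippocampus, 0.07 in occipital and 0.04 in prefrontal cortex. For this MRPS33 identifier it was 1.197 in amygdala, -0.05 in hippocampus, 0.07 in occipital and -0.04 in prefrontal cortex. In each of the 4 members 5 of 7 HT animals had a larger amygdala excess than every OvH animal. These 4 were chosen by their p in this same test, so that separation adds no support to it. Its share over all identifiers is not given. No member passed with all animals in, but some did when a single animal was left out. There were 27 without HT animal 39, 13 without OvH animal 30, OvH animal 31 or HT animal 40, and 9 without OvH animal 32. Without any one of the other animals 0 members passed. With equal totals 2 passed, and 7 did when the libraries were not joined by animal. The share of all identifiers called is not given for these fits, so the counts do not show a change particular to the members.

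**Figure D4:**
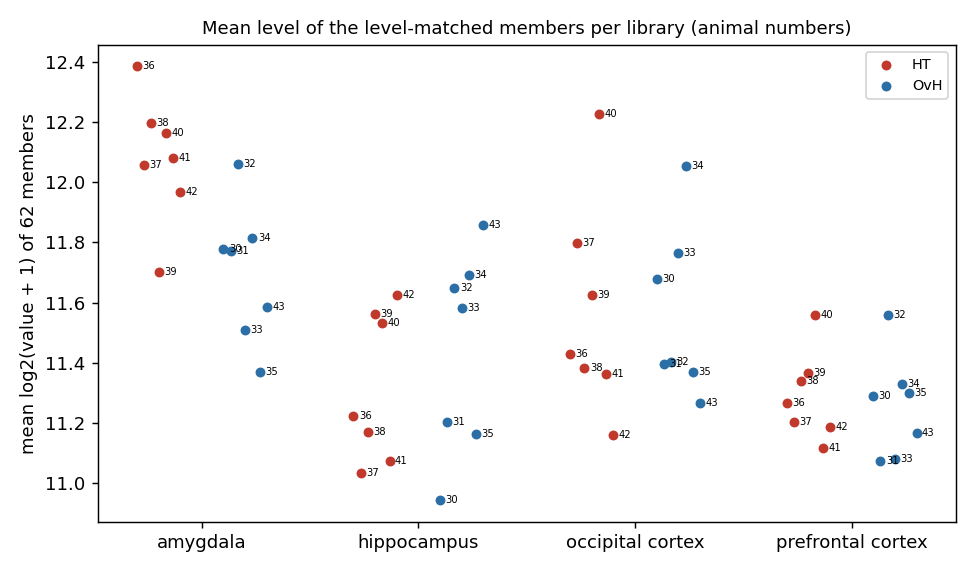
Mean log2(value + 1) of the 62 level-matched members in each library, HT left of OvH within each region, with animal numbers. In amygdala 6 HT animals lie above 6 of the 7 OvH animals. OvH animal 32 lies above HT animals 37, 39 and 42, and HT animal 39 lies below OvH animals 30, 31, 32 and 34. In the other regions the groups overlap throughout.

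Regions were compared with each other within animals, leaving out the amygdala because its level chose the members. The members were more abundant in occipital than in prefrontal cortex, with 33 of 62 called higher, 1 lower and a median of 0.28 against -0.06 over all identifiers. Of the 16259 identifiers tested 20.5% were called higher and 29.1% lower. By subunit 19 of 38 large and 14 of 24 small members were called higher. In 13 members all 14 animals had the higher value in occipital cortex, as in 6.1% of all identifiers, and in 28 at least 12 did (16.1%).

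MRPS9, a small subunit protein of the bacterial series, showed the smallest p. It ranged over 5849, 7008 and 10914 (lowest, median, highest) in occipital cortex, against 3101, 4057 and 6434 in prefrontal cortex. All 14 animals were higher in occipital cortex, and the within-animal difference was 0.72 ± 0.08 (limma adjusted p = 1.22e-06). MRPS18B averaged 9532 ± 1473 in occipital cortex and 6599 ± 952 in prefrontal cortex (0.53 ± 0.08, 1.94e-05), and MRPS28 averaged 2811 ± 420 in occipital cortex and 1962 ± 276 in prefrontal cortex (0.52 ± 0.08, 2.87e-05). Both were higher in occipital cortex in 14 of 14 animals. The exception was MRPL57, a short mitochondria-specific large subunit protein, at 1682 ± 507 in occipital cortex and 2068 ± 303 in prefrontal cortex (-0.34 ± 0.10, limma adjusted p = 0.0120), with 4 of 14 animals higher in occipital cortex. MRPL42 (-0.16 ± 0.11) and MRPL3 (-0.14 ± 0.10) did not pass (limma adjusted p = 0.248 and 0.255).

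Other mitochondrial lists were counted in the same comparison, and the lists themselves were not tested. Called higher were 25 of 55 respiratory chain subunits, 11 of 20 assembly factors, 5 of 13 translation factors, 8 of 17 aminoacyl-tRNA synthetases and 5 of 11 genes for mitochondrial DNA and RNA upkeep. Called lower were 1 translation factor and 4 synthetases, and none in the other 3 lists. Over all identifiers tested 20.5% were called higher and 29.1% lower. Of 60 cytosolic ribosomal protein identifiers 0 were higher and 4 lower (median -0.05). The summed level of neuronal markers lay between 456002 and 647208 in occipital and between 353241 and 581464 in prefrontal cortex over both treatments. Of the myelin markers 9 identifiers were used, none of them for MBP, MAG, CLDN11, MAL, ASPA or MYRF. Their sum lay between 163878 and 569708 in occipital and between 130969 and 572471 in prefrontal cortex. The part of these lists and markers in the members' difference was not tested.

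Hippocampus lay below occipital cortex, with 19 of 62 members lower, 3 higher and a median of -0.20 against 0.03 over all identifiers, of which 19.3% were called lower and 24.4% higher. MRPS9 again led, at 4880 ± 856 in hippocampus and 7236 ± 1222 in occipital cortex (-0.57 ± 0.09, limma adjusted p = 4.26e-05), lower in hippocampus in 14 of 14 animals. MRPS18B (-0.56 ± 0.09) and MRPL39 (-0.52 ± 0.10), a mitochondria-specific large subunit protein, were lower in hippocampus in 13 of 14 animals each. Higher in hippocampus were MRPL57, at 2284 ± 618 in hippocampus and 1682 ± 507 in occipital cortex (0.45 ± 0.15, limma adjusted p = 0.0199), MRPS11 (0.41 ± 0.16, 0.0456) and MRPL30 (0.24 ± 0.09, 0.0457). The MRPS11 and MRPL30 calls were each lost in 11 of 14 fits that left out 1 animal.

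Between hippocampus and prefrontal cortex 12 of 62 members were called higher in hippocampus and 1 lower. Of all identifiers 21.1% were called higher and 23.4% lower, so neither share of the members exceeded that of all identifiers. At an unadjusted limma p under 0.05 there were 29% of the members and 52.2% of all identifiers. The members' median was 0.11 against -0.01 over all identifiers. MRPL24, a core large subunit protein, ranged over 1975, 3942 and 5980 in hippocampus, against 1908, 2665 and 4377 in prefrontal cortex. It was higher in hippocampus in 13 of 14 animals, by 0.52 ± 0.10 (limma adjusted p = 0.000576). MRPS11, in the platform of the small subunit, averaged 6874 ± 2072 in hippocampus and 4625 ± 523 in prefrontal cortex (0.51 ± 0.13, 0.00348), and MRPL19 averaged 1418 ± 99.7 in hippocampus and 1177 ± 120 in prefrontal cortex (0.27 ± 0.06, 0.00287).

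MRPS30 was lower in hippocampus, at 2036 ± 605 in hippocampus and 2371 ± 403 in prefrontal cortex (-0.24 ± 0.09, limma adjusted p = 0.0293), in 12 of 14 animals. That call was lost in 7 of 14 fits that left out 1 animal, each with an adjusted p up to 0.0647. MRPL33 (-0.46 ± 0.19, 0.0623) and MRPL50 (-0.26 ± 0.13, 0.102) did not pass. Without animals 30 and 43, the animals of the doubtful hippocampus libraries, 21 members were higher and 3 lower, MRPL33 (-0.72, limma adjusted p = 8.88e-05) and MRPL50 (-0.39, 0.00632) now among those called. Without animals 33 and 40, whose hippocampus held the choroid plexus gene at high level, 6 were higher and 0 lower. Leaving out single animals gave 20 higher members without animal 30, and 6 or 7 without animal 31, 32, 33, 34, 36, 42 or 43. For the fits without animals the shares of all identifiers called are not given, so no excess among the members can be read from them.

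**Figure D5:**
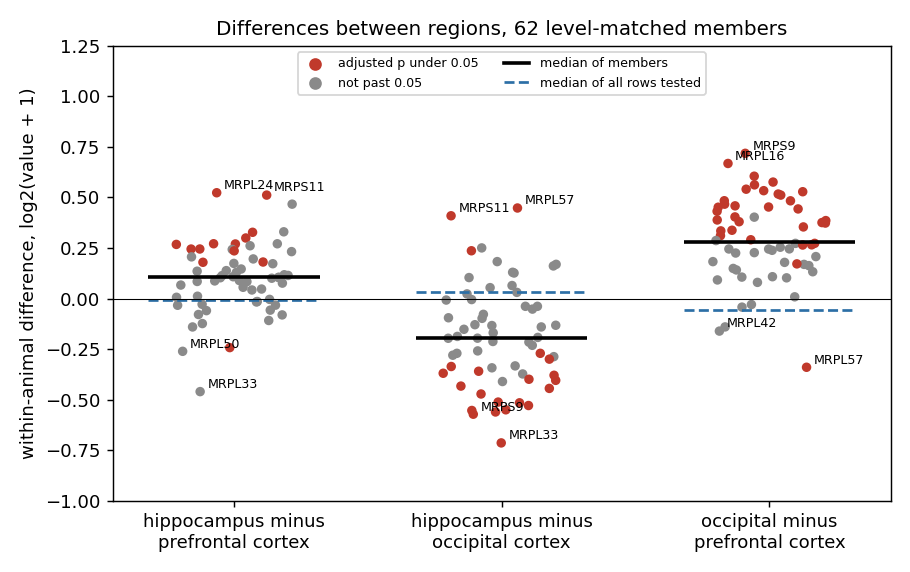
Within-animal differences in log2(value + 1) between regions for the 62 level-matched members, with calls in red, the members' median (solid) and the median of all identifiers tested (dashed). Occipital minus prefrontal cortex has the largest share of red points, 33 above 0 and 1 below, and its members' median is 0.28 against -0.06 over all identifiers.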

How the data were processed

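The authors deposited 1 table of signal values, read counts scaled to a common upper quartile, for 17807 Ensembl identifiers in 56 libraries. Per the submitters' processing notes, reads were handled with FastQC 0.1.1.2, Trimmomatic, STAR 2.7.3a (build Mmul_10) and edgeR 3.28.0. The counting program, its annotation and its strand setting are not given in the sources used here. Undoing the scaling gave whole reads for 100% of values (within 0.01 reads). Symbols were paired with 15123 identifiers. Gene lengths were not used here, so levels are not compared between members.

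HT was compared with OvH in each region in R 4.3.3 by limma 3.58.1, which was given log2(value + 1) and an intensity trend, two-sided, Benjamini-Hochberg over all identifiers with a mean of at least 10. Regions, and the difference of the HT effect, were tested on within-animal differences. The labels pair libraries by animal, and deviations from group means of same-animal libraries correlated at 0.287 to 0.494 on average per pair of regions. The fits were also run on counts simulated with known differences. Identifiers were drawn there independently and without effects of animal, so that run cannot speak to calls that change with single animals. No batch or date is in the labels. Alternatives were another pseudocount, other filters, equal totals, no intensity trend, edgeR 4.0.16 and DESeq2 1.42.0 on recovered reads, the replicate block, myelin markers as a covariate, a closer level match, and leaving out animals. Leaving out animals 30 and 43, or 33 and 40, in the averages and tests between regions was chosen after seeing the data.

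Named members were the 8 higher and 4 lower with the smallest p in amygdala, a list of members with described roles, the 3 smallest p in each direction in each other comparison, and the 4 smallest p for the difference of the HT effect. Members and lists were chosen with earlier results of these data known.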

Additional observations from a re-analysis of the deposited data

Results flagged for a closer look

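Single animals stood far from the rest of their group in 9 of the 84 groups of named members examined. Relative to the group's range, the gap to the nearest animal exceeded Dixon's critical value for 7 animals. Chance alone marks about 1 in 20 such groups if they are independent. These groups share animals, and the members vary together, so the 9 are not independent events. Of the 9, 5 were OvH animal 32 in amygdala. It was highest for MRPS16 at 5729.53 (next 2102), MRPL11 at 7597.59 (next 5225), MRPS2 at 3783.29 (next 2532) and MRPL10 at 2758.96 (next 1988), and lowest for MRPL3 at 1347.81 (next 1918). HT animal 39 in amygdala was lowest for MRPS18C at 3336.43 (next 5555) and MRPL45 at 4642.23 (next 7373). HT animal 41 in amygdala was lowest for MRPL3 at 1205.04 (next 1710). In hippocampus OvH animal 30 was highest for MRPS30 at 3949.97 (next 2560), and this is a library whose animal was in doubt.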

How the results depend on the processing

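In amygdala the 22 higher members became 13 with equal totals and by edgeR and 2 with myelin markers as a covariate, and the 0 lower members became 2 with equal totals. DESeq2 called 25 higher. The replicate block over all 56 libraries, with a consensus correlation of 0.184, called 20 higher. MRPS22 reversed to -0.053, MRPL44 to -0.023 and MRPL10 to -0.13 with equal totals, and MRPL10 to -0.047 by edgeR. In hippocampus MRPL9 reversed to -0.0028 by DESeq2 and MRPL44 to -0.0068 without the hippocampus libraries of animals 30 and 43. With single animals left out, MRPL9 there lay between -0.076 and 0.12 and MRPL44 between -0.043 and 0.077.

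For the difference of the HT effect, 0 higher members became 2 with equal totals and 7 with no replicate block. Hippocampus minus prefrontal cortex had 12 higher members as reported, but 6 with equal totals, with no replicate block or without animals 33 and 40, 7 with no intensity trend, and 21 without animals 30 and 43. Its 1 lower member became 3 with equal totals or without animals 30 and 43, and 0 with no replicate block or without animals 33 and 40. Hippocampus minus occipital cortex had 3 higher members, but 1 with no intensity trend and 5 without animals 30 and 43. The block changed no other count by more than 1.5 times.

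With each animal left out in turn, higher members numbered 7 to 33 in amygdala, 0 to 27 for the difference of the HT effect, 6 to 20 for hippocampus minus prefrontal cortex, 1 to 5 for hippocampus minus occipital cortex and 29 to 41 for occipital minus prefrontal cortex. Lower members numbered 0 to 3, 14 to 28 and 1 to 2 in those 3 comparisons of regions, and 0 in the others, where no member was higher outside amygdala either. The cause of these changes was not tested. Shares of all identifiers called in the alternative fits of this section are not given, so the changes need not be particular to the members. Names outside amygdala rest on a matching level.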
